A study of Homo sapiens with 15 samples.

Results

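Weak cloaking of a reporter mRNA was set against the same mRNA without cloaking in HepG2 cells. HepG2 is a human liver cancer cell line that keeps many secretory and metabolic functions of hepatocytes. The comparison took 3 weak-cloaked and 3 non-cloaked libraries, chosen by their labels, out of 15 libraries of the series. Weak-cloaked cells received 1 µg of mRNA for enhanced green fluorescent protein (eGFP) that had been treated with 0.1 M of the reagent CR-3 for 0.5 h at 25 °C. Medium-cloaked mRNA was treated at 0.5 M for 1 h at 30 °C, and strong-cloaked mRNA at 1 M for 2 h at 37 °C. Non-cloaked cells received 1 µg of untreated eGFP mRNA. All 4 of these groups were transfected with the lipid nanoparticle reagent NanoLNP, the untransfected group received nothing, and all wild-type HepG2 cells were lysed at 48 h. The libraries are labelled as biological replicates, 3 per group. Particles without mRNA were not among the groups, so neither the particle nor the mRNA alone can be read from them, and no row for eGFP was analysed here, so translation of the reporter was not measured.

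Cloaking, as the term is used in the field, is a reversible chemical masking of an RNA, usually by acyl groups on the hydroxyls of its riboses, which keeps the RNA from being read until the groups come off. Foreign RNA in the cytosol can be detected by RIG-I-like receptors, by the kinase PKR and by the oligoadenylate synthetases, and in the endosome by Toll-like receptors. RIG-I-like and Toll-like receptors can act through IRF3 and NF-kappaB to induce interferons, interferon-stimulated genes and cytokines. PKR can slow translation through the integrated stress response. Lipid nanoparticles enter hepatocyte-like cells by endocytosis, largely with apolipoproteins bound to them. The gene lists described here follow those steps, from sensing to stress, lipid and liver functions, growth and translation.

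Library totals were 57128519, 66201471 and 74494314 counts in weak-cloaked replicates 1, 2 and 3, and 70683001, 74637354 and 61472811 counts in non-cloaked replicates 1, 2 and 3. Hepatocyte markers were present throughout: ALB, AFP, APOA1, APOB, TTR, FGB, SERPINA1, HNF4A, GPC3 and TF together took 16620 to 17800 CPM (counts scaled to a common library total) in weak-cloaked cells and 15030 to 17720 CPM in non-cloaked cells. Levels within this set differed widely. TTR was at 3.43 to 5.18 CPM in weak-cloaked cells and 4.485 to 6.556 CPM in non-cloaked cells. GPC3 was at 10.87 to 12.97 CPM and 10.36 to 15.58 CPM, and ALB at 4501 to 6197 CPM and 4371 to 5993 CPM, in the same order. Weak-cloaked replicate 1 stood apart from the rest of its group. On the first principal component of the log2 CPM values, which held 21.1% of the variance, the weak-cloaked libraries lay at -51.6, 35.5 and 44.1 and the non-cloaked libraries at -7.8, 17.3 and 24.4, while the untransfected libraries lay between -70.5 and -68.6. Weak-cloaked replicate 1 was thus nearer to untransfected cells than any other transfected library on this axis. Counts of calls and list medians are therefore given with and without it. Fold changes of single genes are from all 3 libraries unless stated, and the value without replicate 1 follows in the paragraph for each member of a list that it moved by over 1.5 times. The non-cloaked group also had a library apart. On the second component, which held 9.1% of the variance, non-cloaked replicate 3 lay at 63.6, and the next highest library, weak-cloaked replicate 3, at 25.6. Fold changes without non-cloaked replicate 3 are given at the end only where their sign turned.

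**Figure D1:**
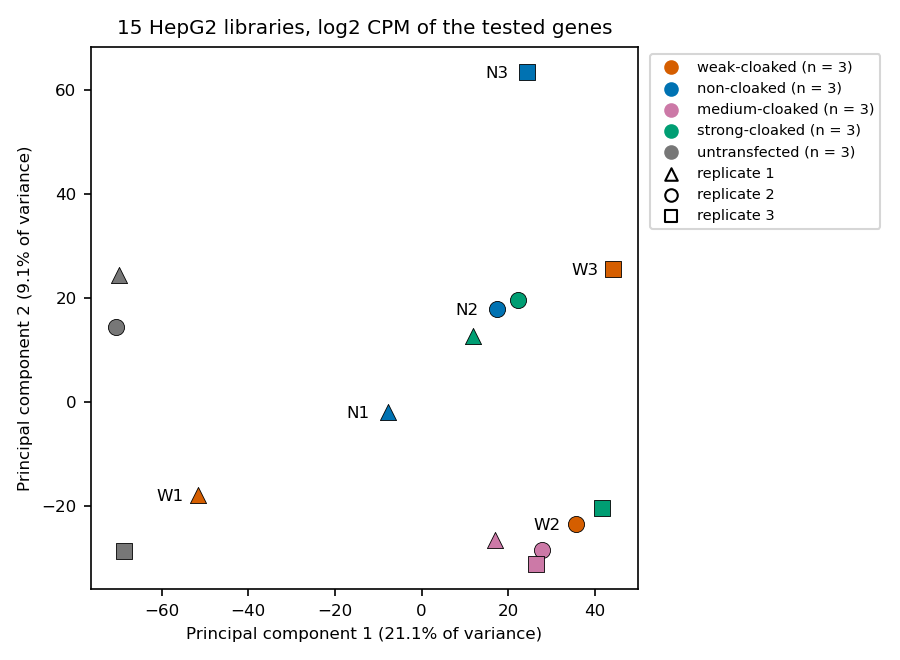
Positions of the 15 libraries on the first and second principal components of centred log2 CPM values (axes in component units, with the percentage of variance), coloured by group and shaped by replicate; W and N mark weak-cloaked and non-cloaked replicates. Weak-cloaked replicate 1 lies at -51.6 on the first component, beside the untransfected libraries, and weak-cloaked replicates 2 and 3 lie at 35.5 and 44.1. Non-cloaked replicate 3 lies highest on the second component, at 63.6.

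Between weak-cloaked and non-cloaked cells 1 gene of 18380 tested passed an adjusted p of 0.05 (0.00544%) in the quasi-likelihood test of edgeR, adjusted by the Benjamini-Hochberg method. That gene was SPAG1, which was higher in weak-cloaked cells, and no gene was lower. SPAG1 encodes a cytoplasmic factor needed for the assembly of the dynein arms of motile cilia (ENSG00000104450, chromosome 8, 100157906 to 100259278 on GRCh38). Its level was 16.2, 9.67 and 8.68 CPM after TMM scaling (the scale of all gene levels from here on) in weak-cloaked replicates 1, 2 and 3, against 0.316, 0.178 and 0.307 CPM in non-cloaked replicates 1, 2 and 3. These levels rest on 1028, 600 and 597 reads in the weak-cloaked libraries and on 23, 13 and 18 reads in the non-cloaked ones. The groups did not overlap, and the lowest weak-cloaked library was far above the highest non-cloaked one.

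On the log2 scale SPAG1 was 5.43 ± 0.46 (SE) higher in weak-cloaked cells, with an adjusted p of 0.000269 in edgeR's quasi-likelihood test and a 95% interval of 4.45 to 6.41. Its means were 11.5 ± 4.11 CPM in weak-cloaked cells and 0.267 ± 0.0774 CPM in non-cloaked cells (SD, n = 3 each). Without weak-cloaked replicate 1 the difference was 5.10 ± 0.43 and the adjusted p 0.000828 by the same test. The other groups divided in the same way: SPAG1 was at 0.189 to 0.338 CPM in medium-cloaked cells and 0.146 to 0.377 CPM in strong-cloaked cells, but at 10.8 to 23.6 CPM in untransfected cells. All 3 weak-cloaked libraries, and not replicate 1 alone, were therefore in or just below the range of untransfected cells, and above all 9 libraries of the other transfected groups.

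The count of calls can be set against unadjusted values. An unadjusted p below 0.05 was reached by 721 genes (3.92%), 346 of them higher and 375 lower in weak-cloaked cells. All 3 weak-cloaked libraries were above all 3 non-cloaked ones for 583 genes (3.17%) and below them for 681 genes (3.71%). After SPAG1, the smallest adjusted p was 0.235 in edgeR's quasi-likelihood test. Over all tested genes the median log2 fold change was 0.02. DESeq2's Wald test, run as an alternative, called 17 genes, 8 of them higher, and SPAG1 was among them with most of the genes given next.

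Among genes with the smallest p in the upward direction, none of which passed the adjusted threshold, CPEB4 encodes a protein that binds cytoplasmic polyadenylation elements and regulates translation of the bound mRNAs (chromosome 5, 173888280 to 173961976). It stood at 28.6, 33.7 and 21.2 CPM in weak-cloaked replicates 1, 2 and 3, against 2.70, 3.19 and 4.93 CPM in non-cloaked replicates 1, 2 and 3. The other 9 libraries lay between 5.196 and 21.2 CPM, so the non-cloaked libraries were the lowest of the series, and weak-cloaked replicate 3 was level with the highest strong-cloaked library. The log2 fold change was 2.95 ± 0.50, with an adjusted p of 0.235 in edgeR's quasi-likelihood test. SVIL encodes supervillin, which ties the actin cytoskeleton to membranes (chromosome 10, 29457338 to 29736781). SVIL was at 6.27, 9.90 and 7.61 CPM in weak-cloaked cells and at 0.660, 1.012 and 0.802 CPM in non-cloaked cells. Medium-cloaked cells had 6.91 to 15.4 CPM and strong-cloaked cells 6.92 to 10.4 CPM of SVIL, so the 3 non-cloaked libraries were the low ones among transfected cells, and 1 untransfected library was as low, at 0.593 CPM. MTIF3, a mitochondrial translation initiation factor, was at 11.6, 10.5 and 7.88 CPM in weak-cloaked cells and at 4.87, 6.38 and 5.55 CPM in non-cloaked cells. For it too the non-cloaked libraries were the low ones, since medium-cloaked cells had 10.2 to 11.3 CPM and strong-cloaked cells 8.64 to 9.31 CPM.

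C17orf49, which encodes a subunit of chromatin complexes, had 20.8, 7.80 and 31.6 CPM in weak-cloaked cells and 5.25, 5.66 and 5.55 CPM in non-cloaked cells. All 12 libraries outside the weak-cloaked group were between 2.97 and 6.70 CPM. Its locus is shared with a read-through transcript, so its counts are uncertain. The antisense RNA SRP54-AS1 was at 2.59, 2.81 and 3.56 CPM in weak-cloaked cells and at 0.990, 1.49 and 1.502 CPM in non-cloaked cells, and its reads cannot be told from those of genes on the other strand if strand was not used in counting. ZBED9 and the pseudogene C4orf46P2 were near the detection limit, at 0.451 to 1.03 CPM and 0.3003 to 0.742 CPM in weak-cloaked cells and at 0.120 to 0.179 CPM and 0.0550 to 0.0958 CPM in non-cloaked cells. Log2 fold changes were 3.26 ± 0.66 for SVIL, 0.83 ± 0.17 for MTIF3, 1.87 ± 0.38 for C17orf49, 1.17 ± 0.23 for SRP54-AS1, 2.20 ± 0.47 for ZBED9 and 2.65 ± 0.62 for C4orf46P2.

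In the downward direction, BCORL1 encodes a transcriptional corepressor related to BCOR (chromosome X, 129981107 to 130058083). BCORL1 stood at 7.49, 7.12 and 7.01 CPM in weak-cloaked replicates 1, 2 and 3, against 14.8, 19.1 and 14.7 CPM in non-cloaked replicates 1, 2 and 3. The 9 other libraries lay between 9.69 and 16.8 CPM, so the 3 weak-cloaked libraries were the lowest of the series, replicate 1 included. Its log2 fold change was -1.17 ± 0.20, with an adjusted p of 0.235 in edgeR's quasi-likelihood test, and -1.20 ± 0.22 without weak-cloaked replicate 1. NOS3 encodes the endothelial nitric oxide synthase (chromosome 7, 150990995 to 151014588). Its level was 5.03, 7.17 and 2.79 CPM in weak-cloaked cells and 19.2, 17.3 and 14.8 CPM in non-cloaked cells, with a log2 fold change of -1.77 ± 0.34. The 9 other libraries were at 8.48 to 24.0 CPM, again above all weak-cloaked ones.

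PHF2, a histone lysine demethylase, was at 2.43, 2.61 and 2.17 CPM in weak-cloaked cells and at 8.87, 17.5 and 15.4 CPM in non-cloaked cells (log2 fold change -2.54 ± 0.56). Untransfected libraries of PHF2 spread from 1.41 to 11.9 CPM, so its level also differed widely within a group. PIK3R5, a regulatory subunit of PI3-kinase gamma, was low throughout, at 0.284 to 0.468 CPM in weak-cloaked cells and 0.939 to 1.78 CPM in non-cloaked cells (-1.73 ± 0.30). Libraries outside these groups lay between 0.719 and 1.112 CPM of PIK3R5, so the weak-cloaked libraries were the lowest of the series. DALRD3, needed for methylation of some tRNAs, was at 13.5 to 18.3 CPM in weak-cloaked cells and 26.6 to 29.01 CPM in non-cloaked cells (-0.89 ± 0.18). AARSD1, which clears mischarged alanine tRNAs, was at 5.89 to 12.3 CPM in weak-cloaked cells and 21.03 to 26.3 CPM in non-cloaked cells (-1.29 ± 0.30), and read-through transcription makes its counts uncertain. GRN, the gene of the lysosomal and secreted protein progranulin, was at 52.6, 58.0 and 75.1 CPM in weak-cloaked cells and at 184, 150 and 161 CPM in non-cloaked cells (-1.42 ± 0.34, adjusted p 0.973 in edgeR's quasi-likelihood test). Untransfected cells had 55.9 to 151 CPM of GRN, which overlaps both groups. The noncoding RNA LINC02506 had 0 reads in all 3 weak-cloaked libraries, against 29, 18 and 21 reads in non-cloaked replicates 1, 2 and 3. With 3 counts over the weak-cloaked group as the floor, or 0.0155 CPM, the non-cloaked level was 21.5-fold above that floor, which is no confidence limit. Its log2 fold change was -7.59 ± 1.59, with a 95% interval of -11.07 to -4.11 and an adjusted p of 0.775 in edgeR's quasi-likelihood test. LINC02506 was also low elsewhere, at 0 to 0.198 CPM in untransfected cells and 0.0628 to 0.155 CPM in strong-cloaked cells.

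**Figure D2:**
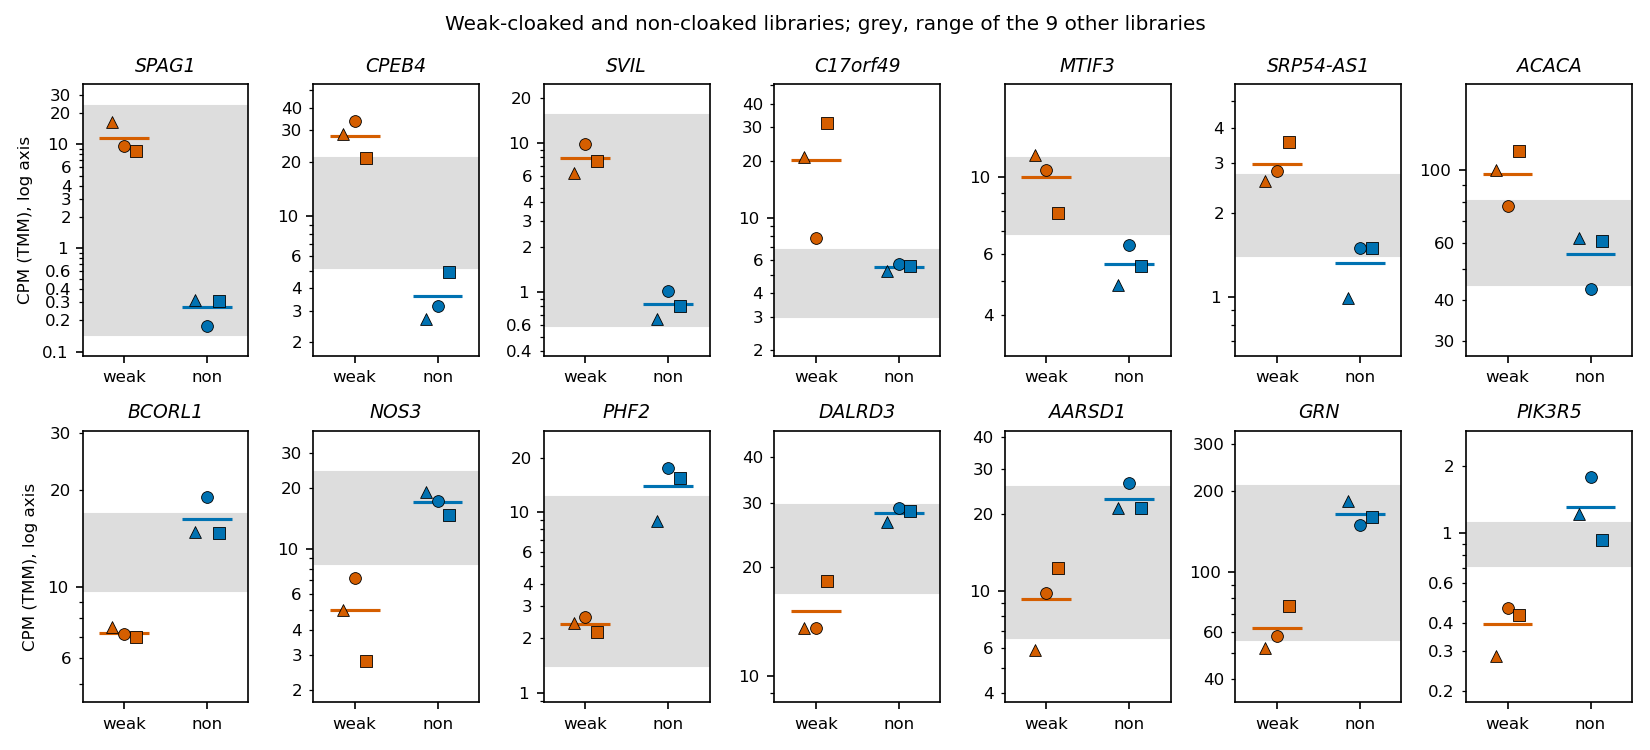
Levels in CPM after TMM scaling (log axes) of 14 genes in weak-cloaked (left) and non-cloaked (right) libraries; triangles, circles and squares are replicates 1, 2 and 3, lines are group means, and the grey band is the range of the 9 untransfected, medium-cloaked and strong-cloaked libraries. SPAG1 lies at 8.68 to 16.2 CPM in weak-cloaked and 0.178 to 0.316 CPM in non-cloaked cells. BCORL1, NOS3 and PIK3R5 lie below the grey band only in weak-cloaked cells.

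A gene that misses the threshold is not shown to be alike in the groups, so the 95% interval of each log2 fold change was counted as well. The interval lay within a 2-fold difference in either direction for 10485 genes (57%), and for 10055 of 18823 tested genes (53.4%) without weak-cloaked replicate 1. The median interval reached 0.62 to either side of the estimate, and 0.65 without that replicate. Ribosomal protein genes and DNA replication genes were among the best bounded lists, with 74 of 78 and 37 of 37 tested members within 2-fold. Without weak-cloaked replicate 1 these counts were 73 and 35. The least bounded lists were replication-dependent histones, with 7 of 16, leukocyte markers, with 3 of 11, and fibroblast and endothelial markers, with 3 of 12. All of these hold genes with few reads, and without that replicate the counts were 6, 3 and 3.

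Of 35 gene lists, none had a called member, and with all libraries no list member had an adjusted p below 0.973 in edgeR's quasi-likelihood test. For the interferon-stimulated genes, the effectors induced by type I interferon, 36 of 40 members were tested and 0 were called in either direction. With all libraries 0 reached an unadjusted p of 0.05. Without weak-cloaked replicate 1, 0 were called and 2 reached an unadjusted p of 0.05, both lower, beside 6.98% of all tested genes. Their median log2 fold change was 0.06, and 0.01 without weak-cloaked replicate 1, beside 0.02 and -0.01 over all genes. For 24 of the 36 the interval lay within 2-fold, and for 22 without replicate 1. ISG15, a ubiquitin-like modifier, was at 37.4, 51.4 and 57.6 CPM in weak-cloaked cells and at 48.2, 56.2 and 67.1 CPM in non-cloaked cells, overlapping ranges with a log2 fold change of -0.23 ± 0.16. Untransfected cells had 26.01 to 28.5 CPM of ISG15. EIF2AK2, the gene of PKR, was at 37.0, 28.5 and 22.2 CPM in weak-cloaked cells and at 27.7, 23.5 and 20.9 CPM in non-cloaked cells (0.28 ± 0.17). OASL, an oligoadenylate synthetase-like protein, was at 0.695 to 0.771 CPM in weak-cloaked cells and 0.963 to 1.38 CPM in non-cloaked cells (-0.63 ± 0.32). IFI44L stayed at or under 0.305 CPM in weak-cloaked and 0.124 CPM in non-cloaked cells, too low to compare. Without replicate 1, ISG15 was at -0.07 and EIF2AK2 at 0.07 on the log2 scale.

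Genes that sense RNA and relay the signal were described next. TICAM1, the adaptor through which Toll-like receptor 3 activates interferon genes, was at 7.68, 6.01 and 7.69 CPM in weak-cloaked cells and at 9.08, 10.1 and 14.3 CPM in non-cloaked cells (log2 fold change -0.65 ± 0.19, unadjusted p 0.00382 in edgeR's quasi-likelihood test). Medium-cloaked cells had 6.54 to 7.93 CPM of TICAM1 and untransfected cells 6.72 to 7.92 CPM, so the non-cloaked libraries were the high ones. IRF3 itself was at 51.0, 47.1 and 56.1 CPM in weak-cloaked cells and at 54.5, 59.5 and 76.7 CPM in non-cloaked cells (-0.31 ± 0.13). DHX58, a regulatory RIG-I-like helicase, was at 2.86, 3.88 and 3.42 CPM in weak-cloaked cells and at 2.05, 2.86 and 1.66 CPM in non-cloaked cells (0.63 ± 0.29). STING1, the adaptor of DNA sensing, had a log2 fold change of -0.40 ± 0.25. Over the 21 tested members the median was 0.11 with weak-cloaked replicate 1 and -0.30 without it. Their mean log2 level, relative to non-cloaked cells, was 0.45 in weak-cloaked replicate 1 but -0.26 and -0.06 in replicates 2 and 3. Untransfected libraries lay at 0.29 to 0.52 and single non-cloaked libraries at -0.07 to 0.12. With weak-cloaked replicate 1 left out, STING1 was at -0.61 on the log2 scale.

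Cytokines and NF-kappaB targets had a median of -0.08, and -0.15 without weak-cloaked replicate 1, with 4 of 19 tested members above 0. The chemokine CXCL2 had 0.142, 0.774 and 0.800 CPM in weak-cloaked cells and 0.495, 0.424 and 7.03 CPM in non-cloaked cells, where replicate 3 alone was high (log2 fold change -2.20 ± 1.09). The chemokine CCL2 had at most 0.129 CPM in weak-cloaked and 0.289 CPM in non-cloaked cells. NFKB2, a subunit of NF-kappaB, and TNFAIP3, its inhibitor A20, had log2 fold changes of 0.34 ± 0.21 and -0.30 ± 0.21, with overlapping groups.

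Stress responses were described by several lists. Among targets of ATF4, which the integrated stress response switches on, 24 of 25 members were tested, with a median of 0.05 and 0.10 without weak-cloaked replicate 1. All weak-cloaked libraries were above all non-cloaked ones for 4 of the 24 (DDIT4, ASNS, VLDLR and ALDH1L2, named because of that) and below them for CEBPB, beside 3.17% and 3.71% of all tested genes. DDIT3, which encodes the stress transcription factor CHOP, was at 19.3, 45.7 and 39.7 CPM in weak-cloaked cells and at 20.4, 24.0 and 20.6 CPM in non-cloaked cells. Weak-cloaked replicates 2 and 3 were thus above the non-cloaked range and replicate 1 below it. The log2 fold change of DDIT3 was 0.69 ± 0.29, and 0.98 ± 0.24 without replicate 1 (adjusted p 0.449 in edgeR's quasi-likelihood test). CEBPB, a transcription factor of the acute phase and of liver differentiation, was at 109, 126 and 127 CPM in weak-cloaked cells and at 136, 154 and 183 CPM in non-cloaked cells (-0.39 ± 0.11). Untransfected cells had 104 to 110 CPM of it. ALDH1L2, a mitochondrial folate enzyme, and PSPH, an enzyme of serine synthesis, had log2 fold changes of 0.58 ± 0.22 and 1.09 ± 0.63. Leaving out weak-cloaked replicate 1, ALDH1L2 was at 0.37 and PSPH at 0.70 on the log2 scale.

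Targets of the unfolded protein response had a median of 0.06 (0.14 without replicate 1) over 25 genes, with HSP90B1 at 0.30 ± 0.15, CANX at 0.16 ± 0.10, SYVN1 at -0.22 ± 0.13 and SDF2L1 at -0.36 ± 0.21. The first pair are chaperones of the endoplasmic reticulum, SYVN1 is a ubiquitin ligase of its membrane, and SDF2L1 is a chaperone cofactor. Heat shock genes had a median of 0.14 (0.22 without replicate 1) over 23 genes, and 17 of them were above 0. HSPA8, the constitutive cytosolic HSC70 chaperone, was at 624, 913 and 780 CPM in weak-cloaked cells and at 643, 642 and 493 CPM in non-cloaked cells (0.38 ± 0.18). The chaperone gene HSP90AA1 had a log2 fold change of 0.42 ± 0.20, and the co-chaperone genes DNAJA1 and HSPH1 0.24 ± 0.12 and 0.35 ± 0.22. Relative to non-cloaked cells the mean level of the heat shock list was -0.23 in weak-cloaked replicate 1 and 0.35 and 0.19 in replicates 2 and 3. Single non-cloaked libraries lay at -0.06 to 0.07. Without replicate 1, SDF2L1 was at -0.14 and HSP90AA1 at 0.27 on the log2 scale.

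Targets of p53 had a median of -0.05 over 25 genes, and 0.10 without weak-cloaked replicate 1. PHLDA3, an inhibitor of AKT signalling, was at 43.6, 44.3 and 47.3 CPM in weak-cloaked cells and at 52.5, 54.2 and 53.2 CPM in non-cloaked cells, a small difference without overlap (-0.24 ± 0.10). The DNA precursor enzyme RRM2B, the apoptosis effector BAX and the RNA-binding protein ZMAT3 had log2 fold changes of 0.66 ± 0.33, -0.22 ± 0.12 and 0.49 ± 0.30. Targets of NRF2, the transcription factor of oxidative and electrophile stress, had a median of -0.16 (-0.05 without replicate 1) over 28 genes, and 19 of them were below 0 with all libraries. Their mean levels relative to non-cloaked cells were -0.35, -0.06 and 0.07 in weak-cloaked replicates 1, 2 and 3. Single non-cloaked libraries lay at -0.13 to 0.14, a range that holds weak-cloaked replicates 2 and 3. NQO1, a quinone reductase, was at 908, 1011 and 1042 CPM in weak-cloaked cells and at 1170, 1140 and 1269 CPM in non-cloaked cells (-0.27 ± 0.09). Untransfected cells had 665 to 786 CPM of NQO1. KEAP1, the inhibitor of NRF2, was at 51.5, 43.1 and 53.4 CPM in weak-cloaked cells and at 59.0, 55.8 and 75.1 CPM in non-cloaked cells (-0.36 ± 0.13). The steroid and xenobiotic reductase gene AKR1C1 and the transporter gene ABCC3 had log2 fold changes of -0.54 ± 0.28 and -0.55 ± 0.32, and AKR1C1 has close paralogs whose reads could be split. With weak-cloaked replicate 1 left out, BAX was at -0.10 and ABCC3 at -0.24 on the log2 scale.

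Metallothioneins and metal-responsive genes had a median of 0.17 (0.07 without replicate 1) over 13 of 16 members, with the metallothioneins MT1X at 0.33 ± 0.19 and MT2A at 0.22 ± 0.21 and the zinc exporters SLC30A1 and SLC30A5 at 0.17 ± 0.17 and 0.64 ± 0.50. Immediate early genes, the fast transcriptional response to signals, had a median of -0.07 over 31 genes and 0.11 without weak-cloaked replicate 1. Their mean level relative to non-cloaked cells was -0.48 in weak-cloaked replicate 1 and 0.11 and 0.13 in replicates 2 and 3. Untransfected libraries lay at -0.76 to -0.53. Single non-cloaked libraries lay at -0.27 to 0.31, a range that holds weak-cloaked replicates 2 and 3. MYC, a growth-promoting transcription factor, was at 135, 78.4 and 90.0 CPM in weak-cloaked cells and at 136, 133 and 172 CPM in non-cloaked cells (-0.54 ± 0.25). FOSB, a subunit of AP-1, was at 0.806, 4.56 and 3.80 CPM in weak-cloaked cells and at 1.33, 2.02 and 1.54 CPM in non-cloaked cells (0.90 ± 0.55). The transcription factor KLF10 and the antiproliferative gene BTG2 had log2 fold changes of 0.33 ± 0.20 and -0.20 ± 0.13. Genes of hypoxia and glycolysis had a median of 0.20 over 30 genes, the highest of the 35 lists with all libraries, and of 0.18 without replicate 1, when histones and heat shock genes were higher, and 24 of them were above 0. VEGFA, the vascular growth factor, was at 182, 173 and 166 CPM in weak-cloaked cells and at 140, 157 and 116 CPM in non-cloaked cells (0.34 ± 0.18). The mitophagy receptor BNIP3L, the glycolytic enzyme ENO2 and the histone demethylase KDM3A had log2 fold changes of 0.55 ± 0.21, 0.51 ± 0.28 and 0.48 ± 0.27. Leaving out weak-cloaked replicate 1, MT2A was at 0.44, SLC30A5 at 0.03, BTG2 at -0.05, BNIP3L at 0.32 and KDM3A at 0.12 on the log2 scale.

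In lipid metabolism the smallest p belonged to ACACA, acetyl-CoA carboxylase, which makes malonyl-CoA for fatty acid synthesis (chromosome 17, 37084988 to 37406818). ACACA was at 100.4, 77.8 and 114 CPM in weak-cloaked cells and at 62.1, 43.2 and 60.8 CPM in non-cloaked cells. The groups did not overlap, and the log2 fold change was 0.82 ± 0.20, with an adjusted p of 0.973 in edgeR's quasi-likelihood test. The 22 genes of fatty acid and triglyceride synthesis had a median of 0.03 (0.09 without replicate 1), with the phosphatidate phosphatase gene LPIN2 at -0.74 ± 0.34 and the acyltransferase genes DGAT2 and GPAM at -0.23 ± 0.12 and 1.31 ± 0.71. Genes of cholesterol synthesis and SREBP2 had a median of 0.01 (0.10 without replicate 1) over 26 genes, and 23 of them (21) were bounded within 2-fold. Their smallest p values were in NSDHL, MVK and TM7SF2, enzymes of the pathway, and in the sterol carrier gene STARD4, with log2 fold changes of -0.21 ± 0.14, -0.22 ± 0.16, -0.62 ± 0.48 and 0.40 ± 0.29. Without replicate 1, GPAM was at 0.60 on the log2 scale.

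PPAR targets and fatty acid oxidation genes had a median of 0.10 (0.15 without replicate 1) over 21 tested members. PDK4, which restrains pyruvate oxidation, was low, at 0.411, 0.629 and 0.407 CPM in weak-cloaked cells and at 0.275, 0.151 and 0.137 CPM in non-cloaked cells (1.35 ± 0.41). The lipid droplet genes PLIN2 and PLIN4 had log2 fold changes of 0.30 ± 0.22 and -0.36 ± 0.24. Genes of gluconeogenesis and glucose handling had a median of 0.01 (0.00 without replicate 1) over 24 tested members. PCK1, the enzyme that commits oxaloacetate to gluconeogenesis, was at 19.98, 51.3 and 40.5 CPM in weak-cloaked cells and at 29.9, 13.2 and 27.8 CPM in non-cloaked cells, where the ranges overlapped through weak-cloaked replicate 1 (0.66 ± 0.33). G6PC1, the last enzyme of the pathway, was at 4.24, 2.85 and 5.75 CPM in weak-cloaked cells and at 7.87, 6.34 and 3.52 CPM in non-cloaked cells, against 39.5 to 46.5 CPM in untransfected cells. G6PC1 was therefore at the level of transfected cells in weak-cloaked replicate 1 as well. The glucose transporter gene SLC2A3 and the glucokinase regulator gene GCKR had log2 fold changes of 0.42 ± 0.23 and -0.19 ± 0.13. With weak-cloaked replicate 1 left out, PLIN2 was at 0.15 and GCKR at -0.06 on the log2 scale.

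Lists of uptake and degradation had medians near 0. Lysosome, endosome and autophagy genes had a median of 0.03 (0.12 without replicate 1) over 37 tested members, with the proton pump gene ATP6V0D1 at -0.29 ± 0.16, the autophagy receptor SQSTM1 at -0.44 ± 0.24 and the early endosome tether EEA1 at 0.54 ± 0.42. Receptors that take up lipoproteins and particles had a median of 0.01 (0.13 without replicate 1). All 18 tested members were bounded within 2-fold with all libraries, and 15 without replicate 1. VLDLR, a receptor for lipoproteins rich in apolipoprotein E, was at 18.8, 17.01 and 18.1 CPM in weak-cloaked cells and at 16.8, 15.1 and 11.5 CPM in non-cloaked cells (0.31 ± 0.19). Clathrin heavy chain (CLTC), LRP6 and SCARB2 had log2 fold changes of 0.28 ± 0.19, 0.35 ± 0.26 and 0.19 ± 0.14. Leaving out weak-cloaked replicate 1, ATP6V0D1 was at -0.17, EEA1 at -0.17, CLTC at 0.09 and LRP6 at 0.22 on the log2 scale.

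Hepatocyte products and apolipoproteins had a median of 0.00 (0.14 without replicate 1). Of 35 tested members 30 were bounded within 2-fold, and 27 without replicate 1. ALB, albumin, was at 5595, 6002 and 4877 CPM in weak-cloaked cells and at 5826, 4494 and 4586 CPM in non-cloaked cells (0.14 ± 0.13), and AFP, the fetal albumin relative that hepatoma cells make, had a log2 fold change of 0.19 ± 0.10. The apolipoprotein genes APOC1 and APOC2, the plasminogen gene PLG and the thyroid hormone carrier gene TTR had values of -0.15 ± 0.14, -0.53 ± 0.32, -0.90 ± 0.80 and -0.24 ± 0.23. Liver transcription factors had a median of -0.16 over 21 genes, and -0.32 without weak-cloaked replicate 1, with 15 of 21 below 0. FOXA3, a pioneer factor, was at 27.0, 20.6 and 26.1 CPM in weak-cloaked cells and at 31.2, 24.8 and 49.8 CPM in non-cloaked cells (-0.52 ± 0.23). NR0B2, the bile acid-induced repressor SHP, and HNF4A had log2 fold changes of -0.32 ± 0.14 and -0.16 ± 0.18. Without replicate 1, APOC1 was at -0.03, PLG at -1.61, TTR at -0.03, NR0B2 at -0.17 and HNF4A at -0.34 on the log2 scale.

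Acute phase and complement genes had a median of -0.13 (0.03 without replicate 1) over 29 tested members, so its sign turned on that library. Relative to non-cloaked cells their mean levels were -0.44, -0.13 and 0.12 in weak-cloaked replicates 1, 2 and 3, and single non-cloaked libraries lay at -0.04 to 0.06. HAMP, the iron hormone hepcidin, was at 101, 62.4 and 82.4 CPM in weak-cloaked cells and at 111, 102 and 159 CPM in non-cloaked cells (-0.60 ± 0.23). The complement gene C2 was at 10.6, 19.5 and 23.6 CPM in weak-cloaked cells and at 16.0, 27.6 and 136 CPM in non-cloaked cells, where replicate 3 alone was high (-1.74 ± 0.62). The serum amyloid gene SAA4 and the complement protease gene MASP2 had log2 fold changes of -0.41 ± 0.22 and -0.34 ± 0.19. Enzymes of xenobiotic metabolism had a median of 0.11 (0.00 without replicate 1) over 22 tested members. Relative to non-cloaked cells their mean levels were 0.38, 0.23 and -0.06 in weak-cloaked replicates 1, 2 and 3. Single non-cloaked libraries lay at -0.05 to 0.07. UGT1A9, a glucuronosyltransferase, was at 9.10, 16.1 and 6.27 CPM in weak-cloaked cells and at 5.65, 4.52 and 3.70 CPM in non-cloaked cells (1.18 ± 0.38), and the UGT1A genes share their last exons, so its counts are uncertain. CYP1A1, TIPARP and AHRR, targets of the aryl hydrocarbon receptor, had log2 fold changes of -0.34 ± 0.17, 0.40 ± 0.23 and 2.39 ± 1.09. With weak-cloaked replicate 1 left out, CYP1A1 was at -0.22 and AHRR at 1.48 on the log2 scale.

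Signalling lists centred near 0 or below it. TGF-beta, activin and YAP targets had a median of 0.00 (0.03 without replicate 1) over 26 genes. ANKRD1, a YAP target, was at 129, 47.8 and 72.2 CPM in weak-cloaked cells and at 30.4, 19.7 and 26.5 CPM in non-cloaked cells, without overlap (1.70 ± 0.49). Untransfected cells had 67.3 to 119 CPM of ANKRD1, so weak-cloaked replicate 1 was above that range, replicate 3 inside it and replicate 2 below it. The extracellular matrix gene TGFBI and the SMAD corepressor gene SKIL had log2 fold changes of 0.43 ± 0.22 and 0.74 ± 0.39. Wnt and beta-catenin targets had a median of -0.16 (-0.18 without replicate 1) over 19 genes, with the transcription factor genes SP5 and SP8 at -0.45 ± 0.20 and -0.55 ± 0.42 and the Wnt inhibitor gene DKK1 at -0.37 ± 0.25. Leaving out weak-cloaked replicate 1, SKIL was at 0.17 and DKK1 at -0.62 on the log2 scale.

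With all libraries DNA replication genes were all bounded within 2-fold, and mitosis genes in 21 of 32 cases. Without weak-cloaked replicate 1 the counts were 35 of 37 and 23 of 32. DNA replication genes had a median of -0.02 (-0.06 without replicate 1) over 37 genes, with the ribonucleotide reductase genes RRM1 and RRM2 at 0.27 ± 0.14 and 0.23 ± 0.16 and the helicase components CDC45 and MCM5 at -0.35 ± 0.18 and -0.25 ± 0.14. Mitosis genes had a median of 0.16 (0.09 without replicate 1) over 32 genes, and 25 were above 0. TPX2, a spindle assembly factor, was at 326, 310 and 227 CPM in weak-cloaked cells and at 65.4, 205 and 170 CPM in non-cloaked cells, where replicate 1 was the low library (0.97 ± 0.33). The cytokinesis gene ANLN, the kinase gene AURKA and the spindle gene NUSAP1 had log2 fold changes of 0.80 ± 0.34, 0.51 ± 0.25 and 0.32 ± 0.16. Mean levels of the mitosis list relative to non-cloaked cells were 0.35, 0.21 and -0.22 in weak-cloaked replicates 1, 2 and 3. The weak-cloaked group itself was thus spread across 0, and single non-cloaked libraries lay at -0.07 to 0.09.

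Cytosolic ribosomal protein genes had a median of -0.03 over 78 genes, and 0.10 without weak-cloaked replicate 1. Their mean level relative to non-cloaked cells was -0.33 in weak-cloaked replicate 1 and 0.12 and 0.08 in replicates 2 and 3. Untransfected libraries lay at -0.49 to -0.34. Single non-cloaked libraries lay at -0.17 to 0.14, a range that holds weak-cloaked replicates 2 and 3. RPS27A, a ribosomal protein made as a ubiquitin fusion, was at 1364, 1788 and 1627 CPM in weak-cloaked cells and at 1440, 1044 and 1141 CPM in non-cloaked cells (0.40 ± 0.12). RPS16 was at 816, 1249 and 1306 CPM in weak-cloaked cells and at 169, 522 and 428 CPM in non-cloaked cells (1.59 ± 0.50), and its untransfected libraries spread from 214 to 796 CPM. RPS6 had a log2 fold change of 0.18 ± 0.11. Reads of ribosomal protein genes can be split with their many processed pseudogenes, which makes these counts uncertain. Translation factors had a median of 0.08 (0.04 without replicate 1) over 29 genes, with the helicase EIF4A2, poly(A)-binding protein PABPC1 and the initiation factor subunit EIF2S3 at 0.35 ± 0.13, 0.27 ± 0.10 and 0.21 ± 0.10. In mRNA decay the median was 0.13 over 29 genes, and 0.01 without weak-cloaked replicate 1. The decay regulator RC3H1, the decapping enzyme DCP2, the exonuclease XRN1 and the decapping scaffold EDC4 had values of 0.69 ± 0.30, 0.55 ± 0.25, 0.67 ± 0.33 and -0.24 ± 0.14. Without replicate 1, RC3H1 was at 0.32 and XRN1 at 0.22 on the log2 scale.

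The mRNAs encoded by mitochondrial DNA were mostly below 0, 12 of 13, with a median of -0.10 and -0.16 without weak-cloaked replicate 1. MT-CO2, a subunit of cytochrome c oxidase, was at 3439, 3398 and 3583 CPM in weak-cloaked cells and at 4390, 4114 and 4241 CPM in non-cloaked cells (-0.29 ± 0.09). MT-CO1, the catalytic subunit, was at 5372, 5658 and 5882 CPM in weak-cloaked cells and at 6352, 6449 and 7510 CPM in non-cloaked cells (-0.26 ± 0.10). Medium-cloaked cells had 3167 to 3437 CPM of MT-CO2 and strong-cloaked cells 3413 to 3597 CPM, so the non-cloaked libraries were the high ones among transfected cells. The mean level of the whole list, relative to non-cloaked cells, was -0.15 to 0.55 in untransfected libraries and -0.17 to 0.09 in the non-cloaked libraries. MT-CO3 and MT-CYB had log2 fold changes of -0.20 ± 0.10 and -0.18 ± 0.11. Most replication-dependent histone mRNA lacks a poly(A) tail, and poly(A) selection captures it poorly. The 16 tested replication-dependent histones had a median of 0.08 (0.28 without replicate 1). Among them H1-4, H2AC8, H2BC21 and H4C3 were at -1.40 ± 0.77, -0.54 ± 0.40, 0.55 ± 0.45 and -0.97 ± 0.86. The list of long noncoding RNAs had a median of 0.12 (0.14 without replicate 1) over 18 tested members. In it KCNQ1OT1, HULC, H19 and LINC01554 were at 0.53 ± 0.25, -0.28 ± 0.21, 0.19 ± 0.16 and -1.71 ± 1.56. With weak-cloaked replicate 1 left out, H2AC8 was at -0.35, H2BC21 at 0.96, H4C3 at -1.69 and H19 at 0.32 on the log2 scale.

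Markers of other cell types were measured for the same libraries. Leukocyte markers summed to 966 to 1196 CPM of the library total in weak-cloaked cells and 1091 to 1193 CPM in non-cloaked cells, nearly all of it LYZ, with MS4A1 and FCGR3A at 0. Their median log2 fold change was -0.30 over 11 of 15 members tested, -0.10 without weak-cloaked replicate 1, with CSF1R, CD14 and CD79A at -0.77 ± 0.68, -0.30 ± 0.32 and -0.50 ± 0.61. Fibroblast and endothelial markers summed to 33.1 to 46.5 CPM in weak-cloaked and 32.6 to 40.4 CPM in non-cloaked cells, with COL1A2 and THY1 at 0. Their median was 0.04 (0.03 without replicate 1) over 12 tested members, with CDH5, KDR, PDGFRB and COL3A1 at 1.30 ± 0.56, -0.64 ± 0.38, -0.41 ± 0.33 and 0.23 ± 0.23. Markers of other epithelia summed to 374 to 470 CPM in weak-cloaked and 335 to 532 CPM in non-cloaked cells, mostly VIL1, with KRT6A and TP63 at 0. Their median was 0.11 (0.01 without replicate 1) over 11 tested members, with CDX2, TFF1, TFF3 and KRT14 at -0.47 ± 0.29, 0.69 ± 0.51, 0.79 ± 0.89 and 1.11 ± 1.49. The 10 defining hepatocyte markers had a median of -0.01 (0.08 without replicate 1). All 10 were bounded within 2-fold with all libraries, and 9 without replicate 1. Leaving out weak-cloaked replicate 1, CSF1R was at -1.77, CD14 at -0.10, COL3A1 at 0.36, CDX2 at -0.88, TFF3 at 0.41 and KRT14 at 1.70 on the log2 scale.

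**Figure D3:**
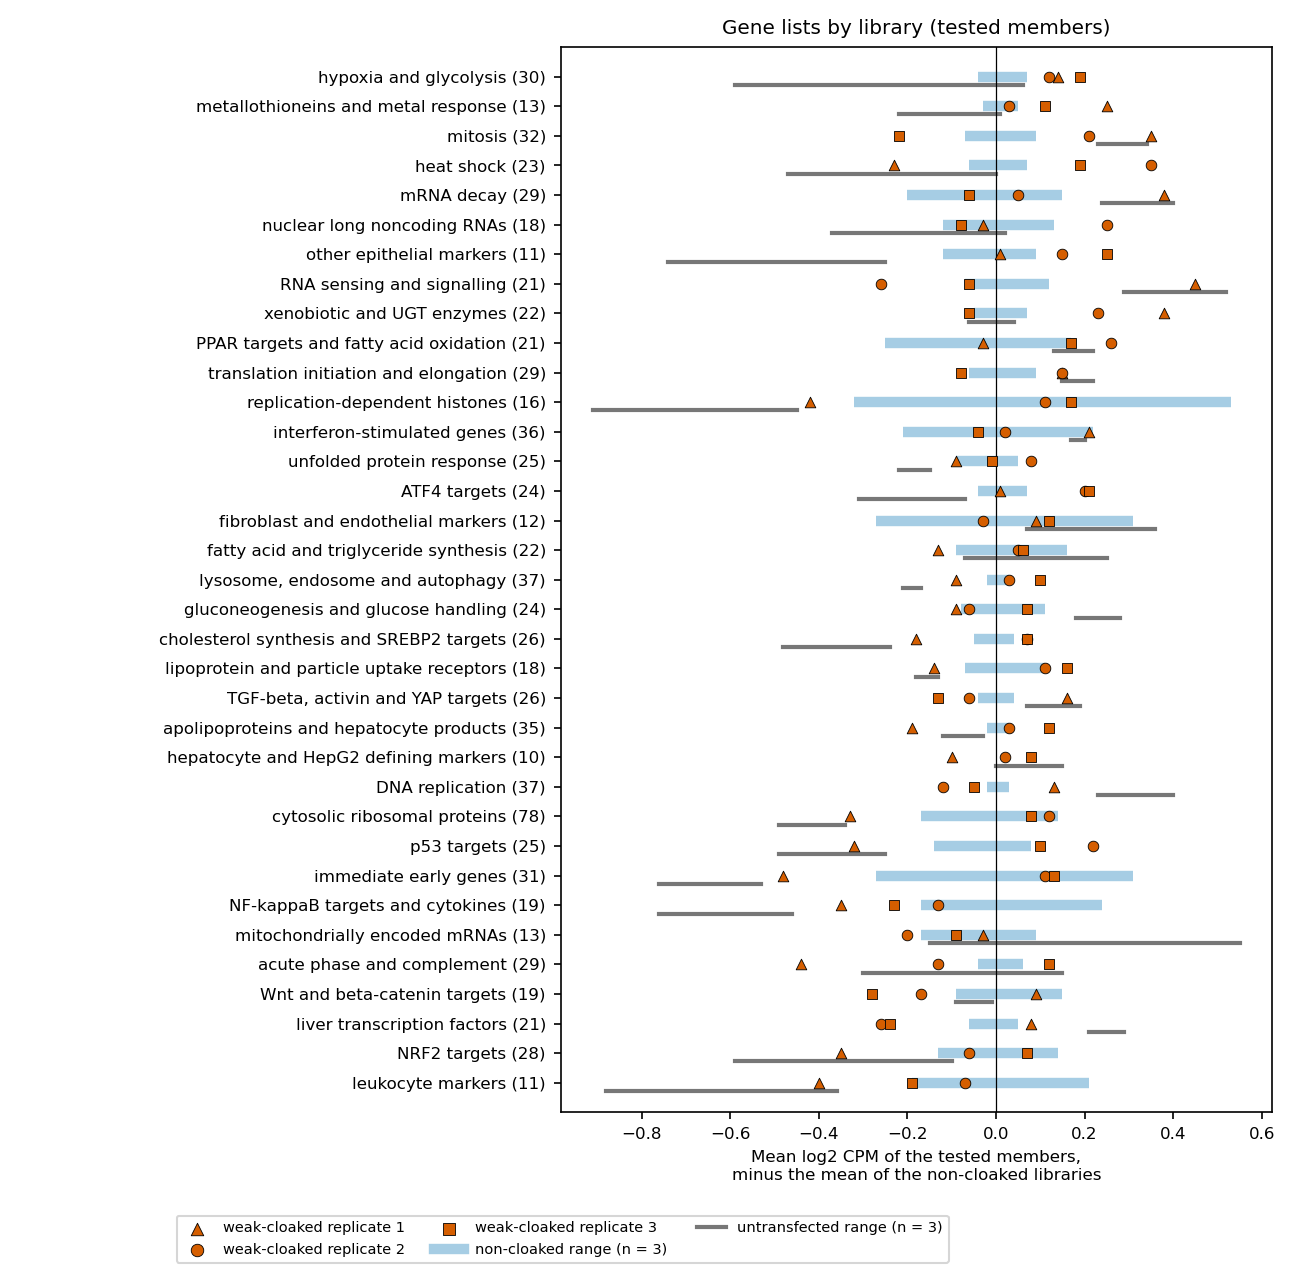
Mean log2 CPM of the tested members of 35 gene lists (rows, number of tested members in brackets) in each weak-cloaked library, minus the mean of the 3 non-cloaked libraries; blue bars show the range of the non-cloaked libraries and grey bars that of the untransfected ones. Weak-cloaked replicate 1 (triangles) lies at -0.48 for immediate early genes and 0.45 for RNA sensing, and replicates 2 and 3 lie on the opposite side of 0 for both. For immediate early genes replicates 2 and 3 lie inside the non-cloaked range of -0.27 to 0.31.

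Without weak-cloaked replicate 1 the single called gene of 18823 tested was again SPAG1 (0.00531%). An unadjusted p below 0.05 was then reached by 1313 genes (6.98%), 511 higher and 802 lower in weak-cloaked cells, and the next adjusted p was 0.112 in edgeR's quasi-likelihood test. That p belonged to MZT2A, a component of the gamma-tubulin complex (chromosome 2, 131464900 to 131492743). MZT2A was at 60.7, 11.7 and 17.6 CPM in weak-cloaked replicates 1, 2 and 3, against 55.3, 57.6 and 56.5 CPM in non-cloaked replicates 1, 2 and 3. Replicate 1 was at the non-cloaked level, and the difference was -0.91 ± 0.46 with it and -1.95 ± 0.28 without it. Its near-identical paralog MZT2B can take its reads, so the level is uncertain.

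Several further genes were named, after their values had been seen, for the smallest p in the 2 remaining weak-cloaked libraries. CCN1, a secreted matrix protein and YAP target, was at 65.2, 235 and 235 CPM in weak-cloaked replicates 1, 2 and 3, against 77.1, 114 and 115 CPM in non-cloaked cells. Untransfected cells had 30.5 to 38.2 CPM of CCN1 and medium-cloaked cells 157 to 247 CPM. The phospholipid-binding protein gene C2CD2L was at 9.85, 36.2 and 36.4 CPM in weak-cloaked cells and at 13.0, 5.65 and 16.0 CPM in non-cloaked cells. SLC41A3, a magnesium transporter gene, was at 13.5, 31.4 and 42.8 CPM in weak-cloaked cells and at 20.4, 19.4 and 15.1 CPM in non-cloaked cells. In CCN1, C2CD2L and SLC41A3 alike, replicates 2 and 3 were above all non-cloaked libraries and replicate 1 was not. Without replicate 1 their log2 fold changes were 1.20 ± 0.26, 1.65 ± 0.35 and 1.015 ± 0.21, those of the keratin-associated gene KRTAP3-1 and the RNA-binding protein gene KHDRBS3 0.89 ± 0.18 and 0.70 ± 0.15, and all had an adjusted p between 0.414 and 0.420 in edgeR's quasi-likelihood test.

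On the lower side GPI, glucose-6-phosphate isomerase of glycolysis, was at 530, 220 and 179.9 CPM in weak-cloaked cells and at 440, 479 and 323 CPM in non-cloaked cells. ZNF503, a transcriptional repressor, was at 32.1, 13.8 and 16.2 CPM in weak-cloaked cells and at 24.6, 25.2 and 25.8 CPM in non-cloaked cells. FLRT2, a cell-surface guidance protein, was at 8.90, 1.85 and 2.04 CPM in weak-cloaked cells and at 4.06, 3.54 and 3.69 CPM in non-cloaked cells, and untransfected cells had 12.4 to 13.3 CPM. In these 3 genes replicate 1 was above every non-cloaked library and replicates 2 and 3 below all of them, so their log2 fold changes were -0.42 ± 0.33, -0.28 ± 0.25 and 0.18 ± 0.45 with replicate 1 and -1.05 ± 0.22, -0.75 ± 0.16 and -0.95 ± 0.20 without it. ZKSCAN5, a zinc finger gene, TMEM203, a membrane protein gene, and DENND10, a regulator of late endosomes, had values of -1.23 ± 0.24, -0.93 ± 0.19 and -1.61 ± 0.35 without replicate 1.

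**Figure D4:**
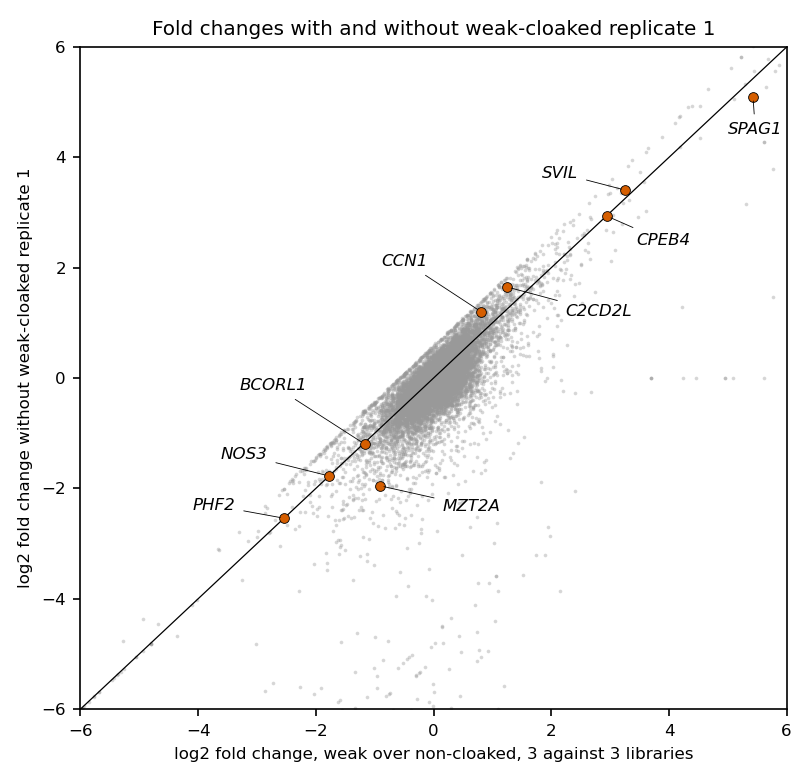
Log2 fold changes of weak-cloaked over non-cloaked cells from all 3 weak-cloaked libraries (horizontal) and without weak-cloaked replicate 1 (vertical), 1 grey point per gene, with the line of equality and 9 named genes; 18278 genes are drawn and 102 lie beyond the axes. SPAG1, CPEB4, SVIL, BCORL1, NOS3 and PHF2 lie near the line, and MZT2A is at -0.91 with replicate 1 and -1.95 without it.

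How far weak-cloaked replicate 1 lay towards untransfected cells was measured on 3205 genes of 18141 tested (17.7%) that were called between non-cloaked and untransfected cells in the 12 libraries outside the weak-cloaked group, a measure chosen after the position of that library was known. In weak-cloaked replicates 1, 2 and 3, 2458 genes (76.7%), 296 genes (9.24%) and 129 genes (4.02%) were nearer to the untransfected than to the non-cloaked mean. The position of replicate 1 on the first principal component was 0.222 of the way from untransfected (0) to non-cloaked cells (1). Projected over the 3205 genes on the line from the untransfected mean (0) to the non-cloaked mean (1), weak-cloaked replicates 1, 2 and 3 lay at 0.34, 0.95 and 1.11. Medium-cloaked libraries lay at 0.85 to 0.93 and strong-cloaked libraries at 0.888 to 1.013. Replicate 1 was thus intermediate on that line and nearer to its untransfected end, and replicates 2 and 3 were at the non-cloaked end. Its total of 57128519 counts was the lowest of the 15, while its genes with 10 or more counts numbered 16959, against 16748 and 17008 in weak-cloaked replicates 2 and 3. Genes with short transcripts were also set against genes with long ones, as the difference of their median log2 changes from non-cloaked cells. It was -0.448, -0.065 and 0.082 in weak-cloaked replicates 1, 2 and 3, and -0.582 to -0.322 in untransfected libraries. Non-cloaked replicates 1, 2 and 3, each against the others, were at -0.335, -0.006 and 0.342. The parts of depth and of transcript length in the position of weak-cloaked replicate 1 were not tested.

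**Figure D5:**
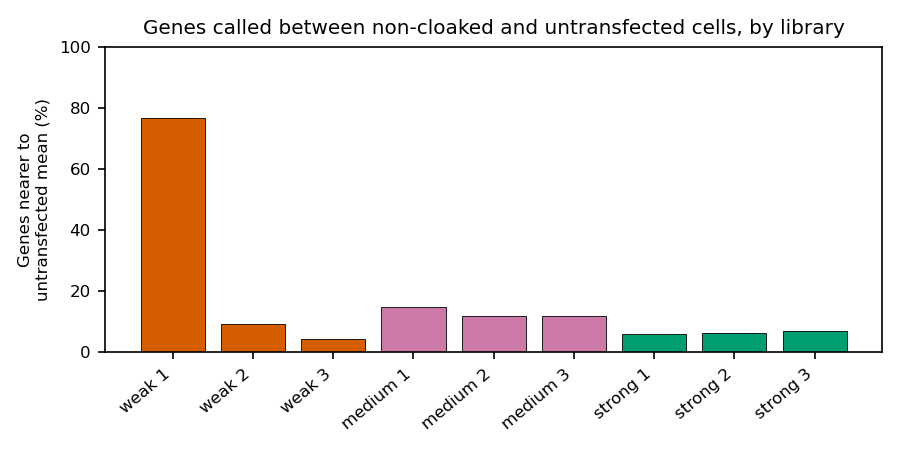
Percentage of 3205 genes, called between non-cloaked and untransfected cells, whose level in each weak-, medium- and strong-cloaked library (bars, replicates 1 to 3) was nearer to the untransfected mean. Weak-cloaked replicate 1 reaches 76.7%, and the 8 other libraries 4.02% to 14.8%.

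Replicate 1 also had single genes far from the other weak-cloaked libraries. The 8 with the widest gap on the log2 scale were HNRNPUL2-BSCL2, RBM27, JRK, MBNL2, EEF1A1P11, PBX2, MED14 and LUZP1, with gaps of 9.09 down to 3.95, and they are described without a test. RBM27, an RNA-binding protein gene, was at 0.126, 13.9 and 15.1 CPM in weak-cloaked replicates 1, 2 and 3, against 15.9, 12.4 and 12.1 CPM in non-cloaked cells, and every untransfected library had 11.2 CPM or more. JRK, a gene derived from a transposase, was at 0.269, 19.5 and 23.5 CPM in weak-cloaked cells and at 21.5, 24.3 and 18.4 CPM in non-cloaked cells. The pseudogene EEF1A1P11 was at 1.06, 29.5 and 26.05 CPM in weak-cloaked cells and at 22.4, 22.97 and 24.9 CPM in non-cloaked cells. These 3 genes were near 0 in replicate 1 alone, which is not the level of untransfected cells. The read-through gene HNRNPUL2-BSCL2 had 0, 39.3 and 15.2 CPM in weak-cloaked cells and 0, 28.01 and 18.3 CPM in non-cloaked cells, so it was at 0 in replicate 1 of both groups. The splicing regulator MBNL2 and the homeobox gene PBX2 were low in replicate 1 and also in at least 1 library of another group. The Mediator subunit MED14 had 0.585 CPM in replicate 1 and at least 4.93 CPM in every other library. The cytoskeletal gene LUZP1 was low in all weak-cloaked libraries, at 0, 0.403 and 0.480 CPM, against 0.0138, 0.219 and 27.3 CPM in non-cloaked cells.

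Weak-cloaked cells were also set against the further grades of cloaking, comparisons that share the weak-cloaked libraries with each other and with the one above. Against medium-cloaked cells 1 gene of 18380 was called (0.00544%), and against strong-cloaked cells 1 gene (0.00544%), in edgeR's quasi-likelihood test after the same adjustment. It was SPAG1 in both, with log2 fold changes of 5.53 ± 0.46 over medium-cloaked cells (adjusted p 0.000224) and 5.52 ± 0.46 over strong-cloaked cells (adjusted p 0.000236). Without weak-cloaked replicate 1 the calls were 1 gene against medium-cloaked cells (0.00531%), SPAG1, and 2 genes against strong-cloaked cells (0.0106%), SPAG1 and MZT2A. MZT2A was at 11.7 and 17.6 CPM in weak-cloaked replicates 2 and 3, against 93.2, 57.3 and 92.6 CPM in strong-cloaked cells, and the log2 fold change was -2.47 ± 0.28 with an adjusted p of 0.0125 in edgeR's quasi-likelihood test. With all 3 weak-cloaked libraries MZT2A was not called. When the weak-cloaked and strong-cloaked libraries were fitted alone, 0 genes passed, with or without replicate 1, against 11 and 17 in DESeq2 with all groups.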

How the data were processed

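RNA from HepG2 cells was sequenced as poly(A)-selected, strand-specific libraries read in pairs of 150 bases, per the labels' protocols. The authors deposited raw read counts per gene, and the submitters' processing notes name HISAT2, HTSeq, DESeq2 1.46.0, R 4.4.2 and the build GRCh38. Whether counting used strand is not given in the sources used here. Here the counts were fitted for all 15 libraries together with edgeR 4.0.16 in R 4.3.3 (TMM scaling, filterByExpr, robust quasi-likelihood), and the contrast was weak-cloaked minus non-cloaked with Benjamini-Hochberg adjustment at 0.05. Gene positions are from GENCODE 29 on GRCh38. The scripts were tested on simulated data.

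Named genes were SPAG1, the genes of smallest p in each direction, up to 4 members of smallest p per list (some are not reported here), and the 8 widest gaps of weak-cloaked replicate 1. The comparison and the lists were chosen with earlier results of these data known. Genes named without replicate 1, the untransfected axis, counts of groups that do not overlap and the 8-fold count were added after seeing the data. Alternatives were DESeq2 1.42.0, other scaling and filters, only the groups compared, length and GC offsets, a replicate block and leaving out single libraries. Counting intervals do not apply, and precision is given by the fitted intervals.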

Additional observations from a re-analysis of the deposited data

How the results depend on the processing

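SPAG1 was higher and called under all 16 alternatives (log2 fold change 5.1 to 5.6, adjusted p 1.6e-33 to 0.018). With weak-cloaked replicate 1, DESeq2 called 17 genes against non-cloaked, 10 against medium-cloaked and 11 against strong-cloaked cells, and leaving out 1 library gave 1 to 2, 1 to 3 and 1 to 4. Without it, DESeq2 called 77, 18 and 17, and leaving out a further library gave 1 to 22, 10 to 20 and 17 to 20, where a lone weak-cloaked library is assumed to vary like the others. Fitting only the groups compared gave 3 and 2 calls without replicate 1 against non-cloaked and medium-cloaked cells, and 0 against strong-cloaked cells with and without it, where edgeR with all groups had 571 and 599 genes at an unadjusted p under 0.05. The replicate block left 1 call in each comparison with all libraries, and 1, also with length and GC offsets, against strong-cloaked cells without replicate 1. After the mean of each group was subtracted from the log2 CPM values, weak-cloaked and non-cloaked replicates 1, 2 and 3 correlated by number at 0.174, 0.017 and 0.106. The same-numbered non-cloaked library was the best match for weak-cloaked replicates 1 and 3 but not for 2. The numbers were not taken as pairs in the main fit. Genes bounded within 2-fold ranged from 8999 to 10055 when 1 library was left out. The position of replicate 1 on the first principal component (0.222, untransfected 0 and non-cloaked 1) ranged from 0.172 to 0.256 when 1 library was left out and was 0.366 with length and GC offsets.

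Of 2718 gene settings 19 turned sign. Without weak-cloaked replicate 1 these were RBM27 (0.10), JRK (0.00), EEF1A1P11 (0.24), PBX2 (0.03), EEA1 (-0.17) and FLRT2 (-0.95). FLRT2 was also at -0.02 with the block, -0.45 with offsets and -0.54 with both. Without weak-cloaked replicate 2, HNRNPUL2-BSCL2 was at -1.02 and KRT14 at -0.37, and without non-cloaked replicate 1 HNRNPUL2-BSCL2 was at -0.34. Without non-cloaked replicate 3, LUZP1 was at 1.33, CXCL2 at 0.32 and H1-4 at 0.06. With offsets EIF2AK2 and SLC30A1 were at 0.00 and 0.00, and with block and offsets at 0.00 and -0.03. The far end of the range when 1 library was left out was 0.99 for HNRNPUL2-BSCL2, -0.95 for RBM27, -1.12 for JRK, -0.79 for EEF1A1P11, -1.33 for PBX2, -5.53 for LUZP1, -2.71 for CXCL2, 1.04 for EEA1, -1.92 for H1-4, 2.04 for KRT14 and 0.54 for FLRT2. The cause was not tested.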

Other observations

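Some genes differed by 8-fold or more between libraries of 1 group, with at least 100 counts in the higher library. There were 241 such genes (1.31%) in weak-cloaked cells and 189 (1.03%) in non-cloaked cells, and 64 were in both. Medium-cloaked, strong-cloaked and untransfected cells had 192, 188 and 223, and 643 genes were in at least 1 group. In weak-cloaked cells the odd library was replicate 1 for 89 genes, replicate 2 for 75 and replicate 3 for 77. This count was chosen after seeing the data.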
